A study of Homo sapiens with 16 samples.

Results

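The genes examined were 36 genes of glucose uptake and glycolysis, of 20037 protein-coding genes placed on a chromosome in the RefSeq table. They are a listed set and were not chosen by a peak value, but the list was drawn up with earlier results of these data known. The set holds 7 glucose transporters, 9 genes of upper glycolysis, 4 bifunctional phosphofructokinase enzymes of the PFKFB family, 7 genes of lower glycolysis, 4 genes of lactate formation and export, and 5 genes around pyruvate dehydrogenase. For each gene, peaks were counted that overlapped 1 kb either side of either end of the gene (a gene-end peak), and separately those in the gene or within 5 kb of it.

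The series mapped BMAL1 by chromatin immunoprecipitation and sequencing (ChIP-seq) in 2 lines of human osteosarcoma cells, U2OS and U2OS-CHRONO. Each line was given 200 nM dexamethasone, a glucocorticoid that brings the clocks of a culture into step, and was sampled at 0, 4, 8, 12, 16 and 20 h, with 1 library per line and time. The time of 0 h lay 4 h ahead of the low point of a luciferase reporter driven by the BMAL1 promoter. A further library came from U2OS-CHRONO with a Myc antibody, with no time or treatment in its labels, and 3 input samples were not analysed here. The name of U2OS-CHRONO points to CHRONO, the clock repressor encoded by CIART. How the line was made, how many clones it holds, whether the Myc antibody bound the Myc protein or a tagged CHRONO (the series describes the precipitation as Myc-CHRONO), and whether the cultures of the 6 times were independent were not stated in the sources used here. The times were therefore paired across the lines, and they are not replicates of a condition. The paired test below still takes the 6 differences by time as independent of each other. Without pairing, the 6 libraries of a line serve as replicates, which the design does not establish. Any SD below is over 6 times and mixes the change over the day with the spread between libraries.

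Glycolysis splits glucose into pyruvate in the cytosol. Transporters of the SLC2A family admit glucose, hexokinases trap it, phosphofructokinase sets the pace, and pyruvate is either reduced to lactate by lactate dehydrogenase and exported by SLC16A carriers or oxidised through pyruvate dehydrogenase, which the PDK kinases inhibit. BMAL1 pairs with CLOCK and binds the E-box CACGTG, a palindromic motif also bound by Myc and by the carbohydrate-response factors, and many tumour lines such as U2OS rely heavily on glycolysis.

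The 5 stretches below are shown because BMAL1 peaks lay on them in 5 or more of the 12 BMAL1 libraries, and because they differ in whether they hold an E-box. Each is the 250 bases before a RefSeq start site (GRCh38.p14), written 5′ to 3′ on the strand of the gene, with CACGTG in capitals. LDHA, the lactate dehydrogenase subunit A gene, is taken from chr11:18394313-18394562 on the + strand, HK2, hexokinase 2, from chr2:74834920-74835169 on the + strand at the second of its start sites, and PDK2, a pyruvate dehydrogenase kinase, from chr17:50095101-50095350 on the + strand. LDHB, lactate dehydrogenase subunit B, is taken from chr12:21657843-21658092 on the - strand, and PKM, pyruvate kinase M, from chr15:72231191-72231440 on the - strand.
LDHA: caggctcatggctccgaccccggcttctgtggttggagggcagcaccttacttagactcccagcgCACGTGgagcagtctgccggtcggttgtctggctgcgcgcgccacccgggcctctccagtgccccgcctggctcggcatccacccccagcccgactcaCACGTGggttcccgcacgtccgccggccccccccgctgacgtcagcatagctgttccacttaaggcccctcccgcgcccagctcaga
HK2: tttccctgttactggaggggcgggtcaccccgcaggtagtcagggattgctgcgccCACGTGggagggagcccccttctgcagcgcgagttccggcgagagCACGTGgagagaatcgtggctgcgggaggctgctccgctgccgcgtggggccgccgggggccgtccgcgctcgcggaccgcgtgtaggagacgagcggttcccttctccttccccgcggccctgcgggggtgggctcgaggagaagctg
PDK2: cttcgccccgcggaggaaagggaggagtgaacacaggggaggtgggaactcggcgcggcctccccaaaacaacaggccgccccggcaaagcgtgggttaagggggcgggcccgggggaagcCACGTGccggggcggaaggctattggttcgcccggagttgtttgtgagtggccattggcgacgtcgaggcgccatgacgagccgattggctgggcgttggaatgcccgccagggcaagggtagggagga
LDHB: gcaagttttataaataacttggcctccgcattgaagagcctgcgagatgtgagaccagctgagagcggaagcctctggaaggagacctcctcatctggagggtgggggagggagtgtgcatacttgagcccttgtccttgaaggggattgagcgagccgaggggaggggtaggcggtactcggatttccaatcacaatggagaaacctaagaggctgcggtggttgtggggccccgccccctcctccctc
PKM: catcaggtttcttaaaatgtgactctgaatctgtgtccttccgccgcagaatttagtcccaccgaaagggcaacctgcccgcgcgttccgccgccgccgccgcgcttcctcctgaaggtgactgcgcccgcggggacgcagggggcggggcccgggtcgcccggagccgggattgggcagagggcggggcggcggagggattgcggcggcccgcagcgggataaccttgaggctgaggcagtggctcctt

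The LDHA stretch holds 2 copies of CACGTG, whose first bases lie 185 and 87 bases before the start site, and a BMAL1 peak covered both copies in 11 of 12 libraries. PDK2 holds 1 copy, 129 bases before its start site, covered in 5 libraries. HK2 also holds 2 copies, 194 and 149 bases before the start site, but a peak covered them in only 1 library, U2OS-CHRONO at 0 h. In the other 5 libraries with a peak on this promoter it began beyond them. LDHB and PKM hold none, although peaks overlapped their promoters in 6 libraries each.

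RefSeq start sites with their surrounding sequence were at hand for 32 of the 36 genes, as 62 promoters of 250 bases before to 50 bases after a start. CACGTG, which reads the same on both strands, occurred in 7 of the 62 promoters (11.3%), against 8.34% of all 22199 promoters of that length. Among the 14 promoters with a BMAL1 peak in at least 1 library 6 held it (42.9%), and among the 48 without a peak 1 did (2.08%). Across all genes, 1851 of the 22199 promoters held it, and 1044 of the 18841 without a peak in any library (5.54%). Where peaks of 6 or more libraries overlapped a promoter, 51.3% held it. That threshold is stricter than the 1 library used for the 42.9%, so these 2 shares cannot be set against each other. Besides LDHA, HK2 and PDK2, it was found once each in GAPDH and PFKFB3, where a peak covered it in 1 library, and in ALDOC and ALDOA, where none did. The related motif CACGTT, searched on both strands and differing from the E-box above in its last base, occurred in 3 of the 62 promoters (4.84%), those of PFKM and GPI, and in 5.43% of all promoters. A match is a description of the letters and not a measured binding site.

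The libraries gave lists of unequal length, from 337 to 6012 peaks in U2OS and from 2429 to 9391 in U2OS-CHRONO, with 2487 for Myc. The U2OS list of 8 h stood apart, with 337 peaks of a median width of 743 bp, against 208 to 396 bp in the other BMAL1 lists, and none of its peaks lay in or within 5 kb of the 36 genes. Read depth was not known, so absence of a peak means only that none was called. Of 10 core clock genes used as a check of the BMAL1 lists, 8 or 9 had a gene-end peak in each BMAL1 list and 10 had a peak in the gene or within 5 kb. In the Myc list the counts were 7 and 10, so this check does not tell the BMAL1 lists from the Myc list.

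BMAL1 peaks at the glycolysis genes were called in every BMAL1 library except U2OS at 8 h, and the share of the 36 genes with one was above the share of all genes in 11 of the 12 libraries. In U2OS, a gene-end peak was present at 7 of the 36 genes at 0 h (19.4%, against 5.01% of all protein-coding genes), at 11 at 4 h (30.6% against 6.80%), at 0 at 8 h (against 0.484%), at 2 at 12 h (5.56% against 2.16%), at 5 at 16 h (13.9% against 3.84%) and at 11 at 20 h (30.6% against 6.45%). The U2OS counts were thus lowest at 8 and 12 h and highest at 4 and 20 h. So were the shares of all genes and the list lengths, with 337 and 1808 peaks at 8 and 12 h and 5287 and 6012 at 4 and 20 h. This course over time is therefore not particular to the 36 genes. In U2OS-CHRONO the counts were 9 at 0 h (25.0% against 9.26%), 9 at 4 h (25.0% against 11.3%), 5 at 8 h (13.9% against 2.75%), 6 at 12 h (16.7% against 4.25%), 11 at 16 h (30.6% against 12.2%) and 4 at 20 h (11.1% against 8.65%). At 20 h the share in U2OS-CHRONO was near that of all genes. These shares are descriptions without a test.

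**Figure D1:**
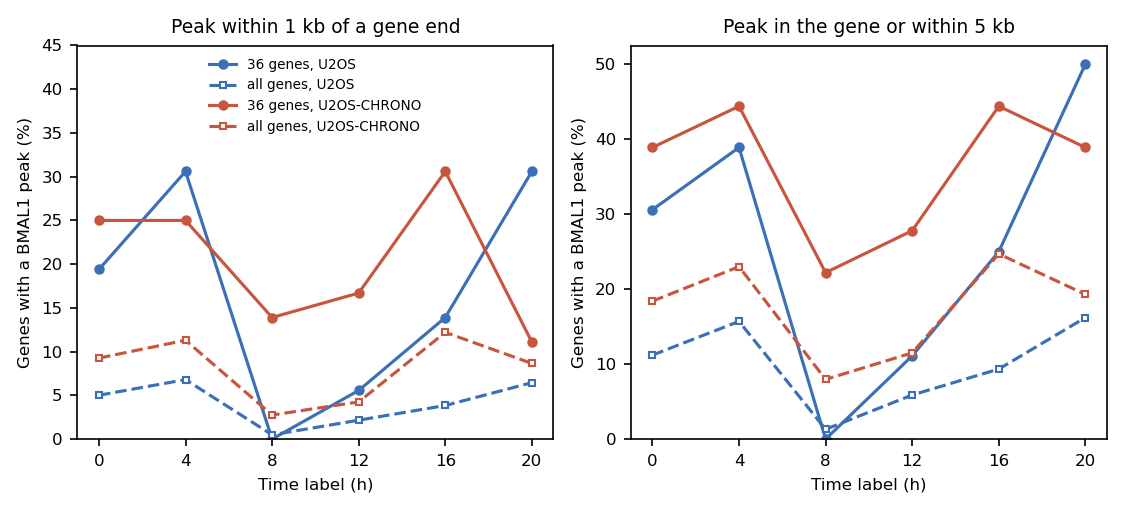
Share of genes with a BMAL1 peak (%, y axis) by time label (h, x axis) for the 36 genes (filled circles, solid lines) and all 20037 protein-coding genes (open squares, dashed lines), in U2OS (blue) and U2OS-CHRONO (red), for gene-end peaks on the left and peaks in the gene or within 5 kb on the right. Each point is 1 library; both sets of genes are lowest at 8 h in U2OS, and the red solid line lies below the blue one at 4 and 20 h on the left and at 20 h on the right.

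With the gene body and 5 kb to each side counted, U2OS had 11 of the 36 genes with a peak at 0 h (11.2% of all genes), 14 at 4 h (15.7%), 0 at 8 h (1.30%), 4 at 12 h (5.88%), 9 at 16 h (9.34%) and 18 at 20 h (16.2%). U2OS-CHRONO had 14 at 0 h (18.4%), 16 at 4 h (23.0%), 8 at 8 h (7.96%), 10 at 12 h (11.5%), 16 at 16 h (24.7%) and 14 at 20 h (19.3%). In this wider window the low point at 8 h was seen in both lines.

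Over the 12 BMAL1 libraries, 16 of the 36 genes (44.4%) had a gene-end peak in at least 1, where 20.8% of all genes did. In 6 or more libraries it was 6 genes (16.7%), LDHA, SLC16A1, LDHB, PKM, SLC2A4 and HK2, where 4.66% of all genes reached that number. A gene-end peak was called in no BMAL1 library at 20 genes, of which 8 had peaks farther in or within 5 kb. The remaining 12, SLC2A6, SLC2A10, GPI, PFKL, PFKM, PFKP, PFKFB1, ALDOA, PGK1, PGAM1, ENO2 and PDK4, had no BMAL1 peak in either window. The share of all genes over the 12 libraries was not worked out for the wider window, so its counts do not set the 36 genes apart. For the set and for all genes alike, the median number of libraries with a gene-end peak was 0, so gene-end peaks belonged to a minority of the set.

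**Figure D2:**
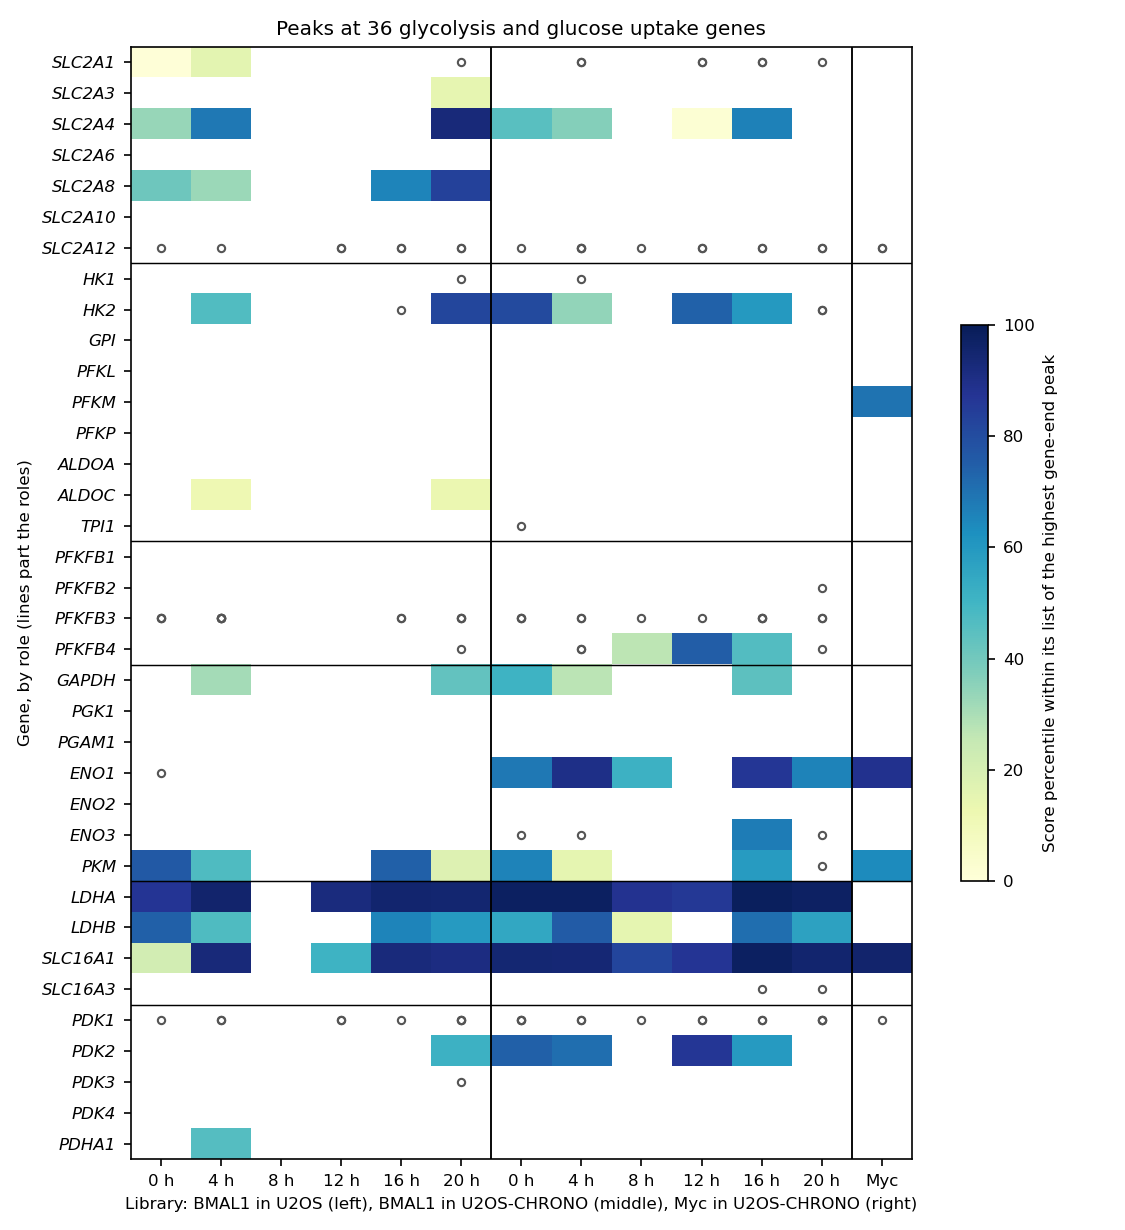
The 36 genes (y axis, grouped by role) in the 13 libraries (x axis: BMAL1 in U2OS, BMAL1 in U2OS-CHRONO, Myc). A filled cell is a gene-end peak, coloured by the percentile of its score within its own list, an open circle is a peak in the gene or within 5 kb only, and a blank is no called peak; LDHA and SLC16A1 are filled in 11 of the 12 BMAL1 columns.

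The genes of lactate formation and export carried the most regular peaks. Of the 4, LDHA, LDHB and SLC16A1 each had a gene-end peak in 6 or more libraries (75.0%, against 4.66% of all genes). SLC16A3, the carrier MCT4, had peaks only beyond the window, at 16 and 20 h in U2OS-CHRONO. LDHA (chromosome 11, 18394563 to 18408425), whose enzyme reduces pyruvate to lactate, had one at all times except 8 h in U2OS and at all 6 in U2OS-CHRONO. The score is the authors' own value for a peak, lowest at 50 and undefined in the labels. Scores are printed as the lists give them, and only ranks and percentiles within a list say how high a peak stands, since a score of one list is not a measure against another. At LDHA the scores were 160.19 to 325.7 in the 5 U2OS lists and 144.08 to 613.58 in the 6 U2OS-CHRONO lists. Within their lists the LDHA peaks stood at percentiles of 87.3 to 95.4 in U2OS and of 86.1 to 98.6 in U2OS-CHRONO, which is near the top of each. A second LDHA site, at 18395768 to 18396333, inside the gene and just before a second RefSeq start at 18396351, had a peak at 3 times in each line (0, 4 and 20 h in U2OS, and 4, 16 and 20 h in U2OS-CHRONO).

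SLC16A1 (chromosome 1, 112911847 to 112956196), the monocarboxylate carrier MCT1 that moves lactate and pyruvate across the plasma membrane, had gene-end peaks at the same times as LDHA in both lines. Its scores in U2OS were 55.64 at 0 h, 251.25 at 4 h, 62.06 at 12 h, 215.08 at 16 h and 213.37 at 20 h. In U2OS-CHRONO they ran from 124.28 to 465.98, at or above the 82.4 percentile of each list, whereas in U2OS the peaks of 0 and 12 h stood only at the 21.3 and 50.9 percentiles. The peak also covers the end of the antisense gene SLC16A1-AS1 at 112956415, so the 2 genes share it. A neighbouring site at 112957343 to 112958041 was called at 4, 12 and 16 h in U2OS-CHRONO and at no time in U2OS.

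LDHB (chromosome 12, 21635342 to 21657842), the subunit that favours the oxidation of lactate, had a gene-end peak at 0, 4, 16 and 20 h in both lines and also at 8 h in U2OS-CHRONO. Its highest peak scored 112.17, 71.76, 82.71 and 80.02 in the 4 U2OS lists, in order of time. In U2OS-CHRONO the scores lay between 52.44 and 138.67. The peak of 8 h stood at the 15.1 percentile of its list and lay 804 bp inside the gene and apart from the others. The other 8 libraries with an LDHB gene-end peak had it on the same site, 21657046 to 21658075.

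In lower glycolysis, 4 of 7 genes (57.1%, against 20.8% of all genes) had a gene-end BMAL1 peak in some library. These were PKM in 7, ENO1 and GAPDH in 5 each, and ENO3 in 1. PGK1, PGAM1 and ENO2 had none. PKM (chromosome 15, 72199029 to 72231591), which makes pyruvate in the last step, had a peak at 0, 4, 16 and 20 h in U2OS with scores of 116.8, 71.69, 100.77 and 54.69. In U2OS-CHRONO the scores were 101.96 at 0 h, 54.83 at 4 h and 87.48 at 16 h. The U2OS-CHRONO peak of 16 h lay 1000 bp inside the gene, at the very edge of the window, and a like peak of 20 h, 1066 bp inside, fell outside it. At the site nearest the gene end, U2OS therefore had a PKM peak at 4 times and U2OS-CHRONO at 2.

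ENO1 (chromosome 1, 8861000 to 8878686), the main enolase of most tissues, had the largest difference between the lines among the 36 genes. A gene-end peak was called at 0 of 6 times in U2OS and at 5 of 6 in U2OS-CHRONO, with scores of 107.15 at 0 h, 258.16 at 4 h, 67.36 at 8 h, 183.16 at 16 h and 98.26 at 20 h. The peaks lay inside the gene, between 8877874 and 8878610, with their near edges 76 to 452 bp from the start site, so they did not reach the bases upstream of it, and they came close to an end of ENO1-AS1 at 8878835. At 16 h a weaker U2OS-CHRONO peak (score 50.27) lay 545 bp upstream as well. The exact paired sign-flip test over the 6 times (two-sided) gave p = 0.0625 for ENO1, where the smallest p this design allows is 0.03125, and 1.00 after adjustment over 4175 genes. Without the pairing by time, which takes the 6 times of a line as replicates, the exact p was 0.0152. The only U2OS peak near ENO1 lay 4890 bp from the gene, at 0 h.

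GAPDH, which oxidises glyceraldehyde phosphate, had peaks at 4 and 20 h in U2OS and at 0, 4 and 16 h in U2OS-CHRONO, all with modest scores of 60.49 to 79.31. The muscle enolase gene ENO3 (chromosome 17, 4948710 to 4957129) had a gene-end peak in U2OS-CHRONO at 16 h alone. A second ENO3 site at 4949721 to 4950145 lay just outside the window, 1011 to 1114 bp from the gene end, and had peaks at 0, 4, 16 and 20 h in U2OS-CHRONO and at no time in U2OS. Measured from its RefSeq start sites instead of the gene ends, ENO3 had a peak within 1 kb at 4 U2OS-CHRONO times and 0 U2OS times.

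**Figure D3:**
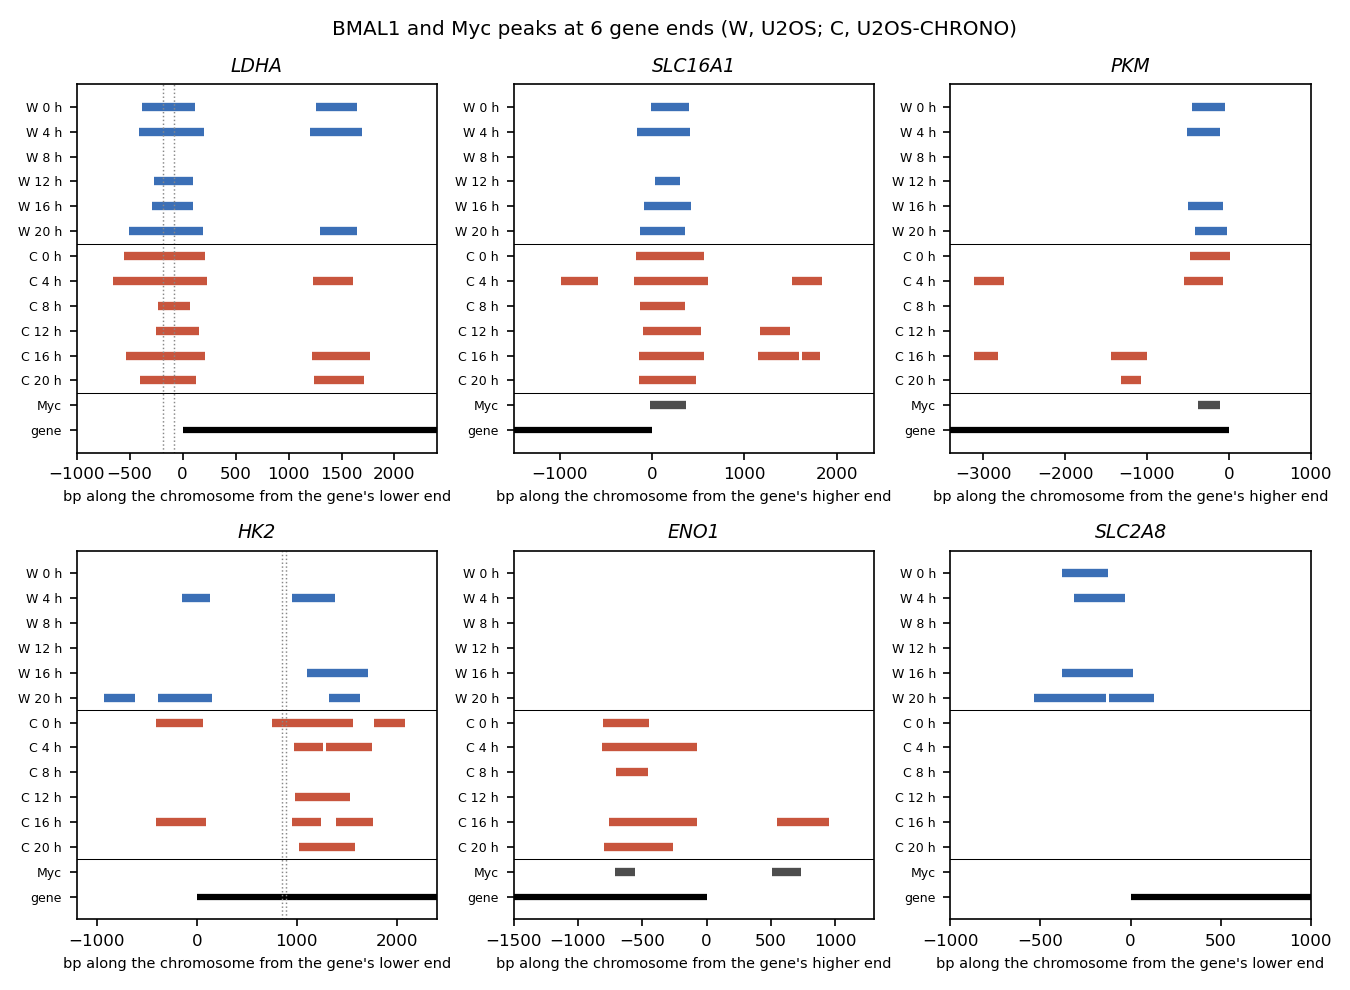
Called peaks (bars) in the 12 BMAL1 libraries and the Myc library (rows; W is U2OS in blue, C is U2OS-CHRONO in red, Myc in grey) against distance from 1 end of the gene in bp along the chromosome (x axis); the black bar is the gene and dotted lines mark CACGTG in the RefSeq promoters. The bars of LDHA span both dotted lines in 11 libraries, ENO1 has bars in red and grey only, and SLC2A8 in blue only.

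In upper glycolysis 2 of 9 genes, HK2 and ALDOC, had a gene-end BMAL1 peak in some library (22.2%, near the 20.8% of all genes). HK2 (chromosome 2, 74834127 to 74893359), the hexokinase isoform high in many tumours, had one at 4 and 20 h in U2OS, with highest scores of 71.23 and 135.32. In U2OS-CHRONO it had one at 0, 4, 12 and 16 h, with highest scores of 149.21, 65.21, 99.86 and 88.44. Most fell on 2 sites, 1 across the first start of the gene (74833724 to 74834275, at 2 times in each line) and 1 around its second start (74834879 to 74835889, at 3 times in U2OS and 5 in U2OS-CHRONO). A further U2OS peak of 20 h (score 71.73) lay 620 bp before the gene. The site at the second start straddles the edge of the window, since its U2OS-CHRONO peaks of 4, 12 and 16 h began 970, 979 and 953 bp from the gene end and that of 20 h began 1026 bp from it. Both sites lie within reach of the divergent non-coding gene HK2-DT. ALDOC, an aldolase, had a gene-end peak at 4 and 20 h in U2OS (scores of 53.79 at most) and at no U2OS-CHRONO time. Outside the gene-end window, HK1 had a peak at 20 h in U2OS and another at a separate site at 4 h in U2OS-CHRONO, and TPI1 had 1 at 0 h in U2OS-CHRONO. BMAL1 peaks were called in neither window at GPI, PFKL, PFKM, PFKP and ALDOA.

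Among the 7 glucose transporters, SLC2A1, SLC2A3, SLC2A4 and SLC2A8 had a gene-end BMAL1 peak (57.1%, against 20.8% of all genes). Of these 4, 3 had it in U2OS alone. Those 3 were the transporters with fewer U2OS-CHRONO than U2OS times (42.9% of the 7, against 3.48% of all genes). SLC2A8 (chromosome 9, 127397169 to 127407898), the intracellular transporter GLUT8, had peaks at its start at 4 U2OS times and at 0 U2OS-CHRONO times in either window. Its highest U2OS scores were 65.16 at 0 h, 62.39 at 4 h, 82.55 at 16 h and 144.23 at 20 h. The peak of 16 h lay across the start, and those of 0 and 4 h ended 123 and 28 bp before it. At 20 h the highest peak ended 135 bp before the start, and a second peak, with a score of 66.17, lay across it. SLC2A8 was the only one of the 36 genes with 3 or more additional U2OS times. The paired exact p was 0.125 and its adjusted value 1.00. SLC2A1, the widespread transporter GLUT1, had gene-end peaks at 0 and 4 h in U2OS that ranked near the bottom of their lists (scores of 50.06 and 54.43), and SLC2A3, GLUT3, had 1 at 20 h in U2OS (score 53.71). Inside SLC2A1, a site at 42940840 to 42941529 on chromosome 1 had a peak at 1 U2OS time and 4 U2OS-CHRONO times.

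SLC2A4 (chromosome 17, 7281718 to 7288257), the insulin-responsive transporter GLUT4 of muscle and fat, had a gene-end peak at 3 U2OS times, with scores of 60.61 at 0 h, 101.79 at 4 h and 238.11 at 20 h. In U2OS-CHRONO it had one at 4 times, with scores of 73.56 at 0 h, 66.71 at 4 h, 50.19 at 12 h and 99.83 at 16 h. No U2OS-CHRONO peak reached a score of 100 and 2 of the U2OS peaks did. At that threshold the line with more SLC2A4 times turned from U2OS-CHRONO (by 1) to U2OS (by 2). The same score need not mean the same in each list. With lists of equal length U2OS also had more SLC2A4 times, by 1. SLC2A12, GLUT12, had peaks inside the gene and downstream of it, and SLC2A6 and SLC2A10 had none.

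The PFKFB enzymes make and remove the allosteric activator of phosphofructokinase. Of the 4 genes, PFKFB4 alone had a gene-end BMAL1 peak (25.0%, near the 20.8% of all genes). It was called at 8, 12 and 16 h in U2OS-CHRONO, with scores of 55.21, 103.48 and 72.85, and at no time in U2OS. The peaks began 958, 986 and 960 bp beyond the gene (chromosome 3, 48517684 to 48563136), and that of 4 h began 1002 bp beyond it, just outside. The same site, 48564094 to 48564487, is nearer to the ends of UCN2 at 48563781 and COL7A1 at 48564073, so it cannot be given to PFKFB4 alone. With the peak centre required inside the window PFKFB4 had 0 times in both lines.

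PFKFB3 (chromosome 10, 6144921 to 6326637), the inducible isoform with the highest kinase activity, had no peak at its gene ends but 8 sites inside. Of these, 6299184 to 6299680 was called at 2 U2OS times and at 6 of 6 U2OS-CHRONO times. Its scores were 64.21 and 60.71 at 4 and 20 h in U2OS, and 103.59, 131.0, 55.21, 92.35, 221.42 and 202.88 in U2OS-CHRONO in order of time. Another site, 6162918 to 6164176, was called at 4 U2OS times and 3 U2OS-CHRONO times, with a score of 318.85 in U2OS at 4 h, at the 95.3 percentile of that list. U2OS-CHRONO thus had 4 additional times at the first PFKFB3 site and U2OS 1 at the other. PFKFB2 had 1 peak, in U2OS-CHRONO at 20 h, outside the gene-end window, and PFKFB1 none.

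Of the 5 genes around pyruvate dehydrogenase, 2 had a gene-end BMAL1 peak in some library (40.0%, against 20.8% of all genes). PDK2 had it in 5 libraries and PDHA1, a subunit of the enzyme itself, in 1 (U2OS at 4 h, score 71.11). PDK2 (chromosome 17, 50094737 to 50112152) had it at 20 h in U2OS with a score of 72.61, and in U2OS-CHRONO at 0, 4, 12 and 16 h with scores of 124.66, 120.94, 147.35 and 87.89. The peaks of all 5 libraries covered the E-box printed above for PDK2, and no U2OS time but 20 h had one. The exact paired p was 0.375, with an adjusted value of 1.00. PDK3 had a single peak inside the gene, and PDK4 none.

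PDK1 (chromosome 2, 172555373 to 172724312), the kinase induced in low oxygen, had none of its peaks at a gene end but carried one of the most regular internal sites. The site at 172692943 to 172693830 was called at 5 U2OS times and 6 U2OS-CHRONO times. In U2OS its scores were 315.72, 290.53, 88.2, 115.6 and 229.7 at 0, 4, 12, 16 and 20 h. In U2OS-CHRONO they were 101.25, 273.79, 145.18, 57.82, 221.26 and 182.62 in order of time. Nearer the start, 1193 to 1442 bp inside the gene, a further PDK1 site (172556566 to 172557208) was called at 2 U2OS times and 4 U2OS-CHRONO times. Its peaks lay within 1 kb of a second RefSeq start of PDK1 at 172556090, though outside the gene-end window.

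SLC2A12 (chromosome 6, 133987581 to 134052624) had a like site inside the gene, at 134035669 to 134036444, called at 5 U2OS and 6 U2OS-CHRONO times. Its U2OS scores were 69.25, 248.61, 54.27, 178.4 and 110.86 at 0, 4, 12, 16 and 20 h. The U2OS-CHRONO scores were 189.58, 421.05, 154.44, 182.7, 213.48 and 216.01 in order of time. A second SLC2A12 site downstream, at 133983363 to 133983830, was called at 3 U2OS and 4 U2OS-CHRONO times. Where exons and introns lie was not used.

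**Figure D4:**
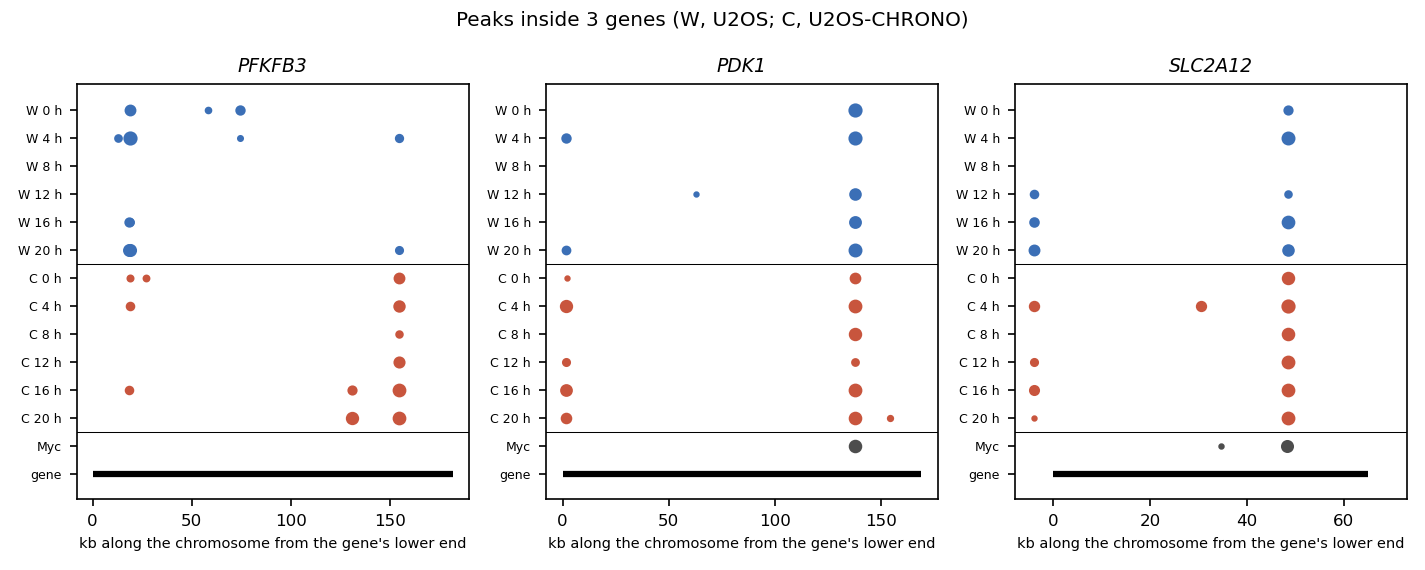
Centres of called peaks in PFKFB3, PDK1 and SLC2A12 (x axis: kb along the chromosome from the lower end of the gene; black bar, gene) in the 12 BMAL1 libraries and the Myc library (rows; W is U2OS in blue, C is U2OS-CHRONO in red, Myc in grey), with larger points for a higher score percentile within the list. PDK1 and SLC2A12 each show 1 internal column of points in 11 BMAL1 rows and the Myc row, and PFKFB3 shows 1 column filled in all 6 red rows.

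When overlapping peaks of the 12 BMAL1 libraries were merged, 62 of 20968 regions lay in or within 5 kb of 24 of the 36 genes, made up of 208 peaks, of which 92 were gene-end peaks. Of the 62 sites, 29 were called in 1 library and 13 in 6 or more (21.0%, against 13.7% of all regions). Both lines shared 19 sites (30.6%, against 27.0% of all regions), 18 were called in U2OS alone (29.0% against 23.5%) and 25 in U2OS-CHRONO alone (40.3% against 49.5%). U2OS-CHRONO had 3 or more additional times at 7 sites (11.3%, near the 12.1% of all regions), and U2OS at 1 site, where 0.906% did.

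Compared by line, the 36 genes showed a smaller excess in U2OS-CHRONO than all genes together. A gene-end peak was present at 6.00 ± 4.56 of the 36 genes in U2OS and at 7.33 ± 2.73 in U2OS-CHRONO (SD, n = 6 times), and the difference by time was 1.33 ± 4.97, less than its spread. Summed over times the calls numbered 36 and 44, a ratio of 1.22, whereas over all protein-coding genes they numbered 4958 and 9712, a ratio of 1.96, with U2OS-CHRONO higher at 6 of 6 times. For the 36 genes U2OS-CHRONO was higher at 4 times and U2OS at 4 and 20 h. At 4 h the order of 11 genes in U2OS and 9 in U2OS-CHRONO turned to 3 and 5 with a score of at least 100 and to 12 and 13 with 5 kb, and both had 10 around RefSeq start sites. Whether the ratios differ was not tested, and list length moved with the line: with lists of equal length the calls at the 36 genes were 36 and 29, a ratio of 0.806, against 1.19 for all genes.

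Leaving out single times moved the difference of 1.33 genes, to 0.400 without 16 h, 0.600 without 8 h, 0.800 without 12 h, 2.00 without 4 h and 3.00 without 20 h. In the wider window the counts were 9.33 ± 6.56 and 13 ± 3.29 (SD, n = 6 times), with totals of 56 and 78, a ratio of 1.39 against 1.76 for all genes. U2OS-CHRONO was higher at 5 times there, and U2OS at 20 h.

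At 20 h U2OS had more of the 36 genes than U2OS-CHRONO. At that time only LDHA, LDHB and SLC16A1 had a gene-end peak in both lines, 8 genes had one in U2OS alone (SLC2A3, SLC2A4, SLC2A8, HK2, ALDOC, GAPDH, PKM and PDK2), and ENO1 in U2OS-CHRONO alone. Over all genes at 20 h the order was the other way, with 788 in both lines, 504 in U2OS alone and 945 in U2OS-CHRONO alone. The counts depended on the window, since those of 11 and 4 genes at 20 h became 15 and 11 with 5 kb around the gene ends and 8 and 7 with 1 kb around RefSeq start sites. At 16 h the counts lay the other way, with PKM, LDHA, LDHB and SLC16A1 in both lines, SLC2A8 in U2OS alone, and 7 genes in U2OS-CHRONO alone (SLC2A4, HK2, PFKFB4, GAPDH, ENO1, ENO3 and PDK2). All genes at 16 h numbered 658 in both lines, 112 in U2OS alone and 1793 in U2OS-CHRONO alone. With lists of equal length the 36 genes gave 5 in U2OS and 4 in U2OS-CHRONO at 16 h, so the order of the lines turned.

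At the other times the genes in U2OS alone numbered 2 at 0 h (SLC2A1 and SLC2A8), 4 at 4 h (SLC2A1, SLC2A8, ALDOC and PDHA1), and 0 at 8 and 12 h. Those in U2OS-CHRONO alone numbered 4 at 0 h (HK2, GAPDH, ENO1 and PDK2), 2 at 4 h (ENO1 and PDK2), 5 at 8 h (PFKFB4, ENO1, LDHA, LDHB and SLC16A1) and 4 at 12 h (SLC2A4, HK2, PFKFB4 and PDK2). Over all genes, those in U2OS alone and in U2OS-CHRONO alone numbered 277 and 1128 at 0 h, 347 and 1254 at 4 h, 21 and 476 at 8 h, and 144 and 563 at 12 h. The 5 genes of 8 h stand against the short U2OS list of that time, and with lists of equal length U2OS-CHRONO had 1. ENO1 and SLC2A8 recurred on opposite sides, ENO1 at 5 times and SLC2A8 at 4.

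Gene by gene, 10 of the 36 genes (27.8%) had more U2OS-CHRONO than U2OS times, where 15.1% of all genes did, and 6 (16.7%) had fewer, where 3.48% did. With lists of equal length the balance turned, to 4 genes with more and 8 with fewer. A difference of 3 or more times towards U2OS-CHRONO was seen at 3 genes, ENO1, PDK2 and PFKFB4 (3.70% of all genes), and towards U2OS at 1, SLC2A8 (0.150%). With lists of equal length the differences were 4 times at ENO1, 2 at PDK2 and 1 at PFKFB4, and U2OS had 4 additional times at SLC2A8 and 3 at PKM. At a score of at least 100, U2OS-CHRONO minus U2OS times were 3 at ENO1, 3 at PDK2, 1 at PFKFB4, -1 at SLC2A8 and -1 at PKM. In the gene or within 5 kb, ENO1, ENO3, PDK2 and PFKFB4 had 3 or more additional U2OS-CHRONO times (11.1%, against 7.31% of all genes) and SLC2A8 3 or more additional U2OS times (2.78%, against 0.379%). The exact paired sign-flip test, run on the 4175 genes with any gene-end BMAL1 peak and adjusted by Benjamini-Hochberg, put 0 genes past an adjusted p of 0.05. At an unadjusted p under 0.05 it gave 16 genes, none of the 36 among them, all at the smallest p that 6 pairs allow, and without pairing 77 genes, with ENO1 among them and again 0 past adjustment. The paired test could pass no gene here, since with 6 pairs an adjusted p under 0.05 needs 2610 genes at the smallest p. The unpaired test needs 181 at its own smallest p, 0.00216. The differences in number of times given for single genes are therefore descriptions.

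In the Myc library of U2OS-CHRONO, a gene-end peak was called at 4 of the 36 genes (11.1%, against 5.37% of all genes) and a peak in the gene or within 5 kb at 6 (16.7%, against 9.80%), 8 peaks in all. The gene-end peaks were at SLC16A1, ENO1, PKM and PFKM. SLC16A1 had the highest, with a score of 133.26 and rank 112 of 2487, and it overlapped the BMAL1 peak of each of the 11 libraries that had one there. PKM had a Myc peak of 63.7 at 72231217 to 72231478 that overlapped a BMAL1 peak at 4 U2OS and 2 U2OS-CHRONO times.

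ENO1 had 2 Myc peaks. That inside the gene (8877977 to 8878131, score 87.07) overlapped the ENO1 BMAL1 peak at 0 U2OS and 5 U2OS-CHRONO times, and that upstream (8879193 to 8879422, score 93.13) overlapped one at 16 h in U2OS-CHRONO. PFKM, the muscle phosphofructokinase, had a Myc peak of 68.7 at 48106271 to 48106477 on chromosome 12, near the end of SENP1 at 48106079, and a BMAL1 peak in no library. The internal sites of PDK1 (Myc score 89.31, BMAL1 at 5 U2OS and 6 U2OS-CHRONO times) and SLC2A12 (79.2, at 4 and 6 times) made up the rest, beside a weak Myc peak of 50.39 in SLC2A12 with no BMAL1 peak on it.

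Of the 6 genes with a Myc peak in either window, 5 had a BMAL1 peak overlapping it, PFKM being the exception. The same share over all genes with a Myc peak was not worked out, so this count does not set the 36 genes apart. Myc peaks overlapped 6 of the 62 BMAL1 sites of the 36 genes (9.68%, against 6.32% of all regions), and 4 of the 13 sites called in 6 or more libraries, against 25.3% of all such regions. LDHA, with a BMAL1 gene-end peak in 11 libraries, had no Myc peak. The Myc library has no replicate and no U2OS counterpart, so no comparison of lines could be made for it.

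A further list held 63 genes of the surrounding pathway, in 6 groups. Of these, 20 (31.7%, against 20.8% of all genes) had a gene-end BMAL1 peak in some library and 9 (14.3%, against 4.66%) in 6 or more. In pyruvate entry and oxidation it was 7 of 12 genes, among regulators 5 of 11, in gluconeogenesis and glycogen 5 of 14, in the pentose phosphate pathway 2 of 7, among other hexose transporters 1 of 7 and among other enzyme isoforms 0 of 12. PC, pyruvate carboxylase, GBE1, the glycogen branching enzyme, and TXNIP, an inhibitor of glucose uptake, had one in 12 of 12 libraries, including U2OS at 8 h, where none of the 36 genes did. G6PC3, a glucose phosphatase, had one in 11 libraries, PDP2, the phosphatase that reverses PDK action, and HIF1A, the oxygen-sensitive factor, in 10 each, PDHB, a pyruvate dehydrogenase subunit, in 8, RPIA, of the pentose phosphate pathway, in 7, and ARRDC4, a relative of TXNIP, in 6. Of the 63 genes, 11 had more U2OS-CHRONO times, where 15.1% of all genes did, and 3 had fewer, where 3.48% did. MLX, the partner of the carbohydrate-response factors, had 0 U2OS and 4 U2OS-CHRONO times. A Myc gene-end peak was called at 6 of the 63 genes, PKLR, MPC1, PC, G6PC3, UGP2 and TXNIP, and at 5.37% of all genes.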

How the data were processed

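Peaks were deposited by the authors as 1 list per ChIP library, 13 in all; the 3 input samples had no part here. Per the submitters' processing notes, HOMER 4.10.3, MACS 1.4.2 and bedtools were applied to the hg38 build, with no role given. The aligner is not given in the sources used here, nor are depth and control. The score of each peak is the authors' deposited value, undefined in the labels, and served for ranks and thresholds inside 1 list at a time; a percentile is the share of peaks in the list with a lower score.

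Genes came from the RefSeq table of GRCh38.p14, which is the assembly of hg38. It has no strand, hence the use of both gene ends. Promoter sequences came from RefSeq, GRCh38.p14. An overlap of 1 bp counted, and genes found in 13 of 13 lists were the same as with bedtools 2.31.1. The lines were compared by a two-sided exact paired sign-flip test per gene over 6 times, with Benjamini-Hochberg adjustment, checked on simulated data. The pairs are the time labels, a sampling schedule common to both lines. Genes given in full had a gene-end peak in 6 or more BMAL1 libraries, a difference of 3 or more times or a Myc gene-end peak; others are by count. The internal sites, GAPDH, ENO3, ALDOC, SLC2A1, SLC2A3, PDHA1 and MLX were given values after these were seen. The members, lists and tests were chosen with earlier results of these data known. The alternatives tried were lists of equal length, a score threshold of 100, a 5 kb window, 1 kb around start sites, the peak centre in the window, each time left out, no pairing, and centres within 500 bp for Myc. Python 3.11.15, NumPy 2.4.6, SciPy 1.17.1, pandas 2.3.3 and matplotlib 3.10.9 were used.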

Additional observations from a re-analysis of the deposited data

How the results depend on the processing

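Of 62 values over the set computed under alternatives, 56 moved within the spread or within 1.5 times. For means the spread was the SD over 6 times, 4.97 genes for the difference of 1.33, so this count is a weak check. The U2OS mean, 6.00 genes, is among the 56 although it became 2.50 with a score of at least 100. So is the 0 of the test by gene. Of 108 differences in times at single genes, 91 kept their direction, 15 became 0 (among them PFKFB4 with the peak centre or start sites, HK2 with 3 settings, and LDHA, SLC16A1 and LDHB without 8 h) and 2, both at SLC2A4, reversed. With a score of at least 100, the U2OS-CHRONO mean became 4.00 genes, the genes with fewer U2OS-CHRONO times 3, the SLC2A4 difference -2 times and the genes with a Myc gene-end peak 1 (SLC16A1). With lists of equal length, the mean difference between the lines became -1.17 genes, the genes with more U2OS-CHRONO times 4 and the SLC2A4 difference -1. With 5 kb around the gene ends the U2OS-CHRONO mean became 10.5. The causes of these changes were not tested. Leaving out each time gave mean differences of 0.400 to 3.00 genes. Without the pairing by time (no replicate block) 0 genes passed an adjusted p of 0.05, 77 had an unadjusted p under 0.05 and the smallest adjusted p was 0.565. The 0 of the paired exact test, also with lists of equal length (3148 genes, 0 with an unadjusted p under 0.05), says nothing about stability, since 6 pairs cannot pass the adjustment unless 2610 genes (1968 with equal lists) reach the smallest p.

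Depth and the meaning of the score were unknown, and each line and time had 1 library. Gene ends miss internal start sites, as at ENO3 and PDK1. Peaks on a window's edge (PKM, HK2, PFKFB4) changed single counts.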
